A study of Homo sapiens with 3 samples.

Results

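The genes described here encode enzymes that conjugate drugs, hormones and bilirubin, or that oxidise and reduce alcohols, aldehydes and carbonyls. They were chosen by symbol, as every gene of the UGT1, UGT2, GST, SULT, ALDH, ADH and AKR1 families and the N-acetyltransferases NAT1 and NAT2. The rule found 72 of the 16149 genes listed in at least 1 library. Of these, 64 were listed in the parent and 64 and 65 in subclones 1 and 2, 56 were listed in all 3, and 45 had a mean level of at least 1 RPKM (reads per gene, corrected for gene length and sequencing depth). RefSeq holds 89 protein-coding genes with such symbols, of which 20 were not listed in any library: ADH1A, ADH4, ALDH1A3, ALDH1L1, ALDH3B2, GSTA5, GSTM2, GSTM5, GSTT1, GSTT2B, GSTT4, NAT2, SULT1A3, SULT1A4, SULT1C3, SULT4A1, SULT6B1, UGT1A5, UGT2A1 and UGT2A2. Gene models and the treatment of reads shared between similar genes were not given in the sources used here. A gene not listed is therefore not shown to be silent.

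Messenger RNA was sequenced from 3 cultured human hepatocellular carcinoma (HCC) cell lines, 1 library each. All derive from HCCLM3, a line established from a patient tumour grown in nude mice, and were cultured in DMEM medium without an added agent named in the labels. The parent was labelled as having low metastasis ability, although the methods of the study describe its parental HCCLM3-R, which carries red fluorescent protein, as highly metastatic. Subclone 1 was labelled as more metastatic and specific to lung, and subclone 2 as metastatic to both lung and celiac lymph node. Subclones were grown from single cells of lung or lymph node metastases of HCCLM3-R tumours in the livers of nude mice, so each is a single clone. Which of the clones were sequenced was not given in the sources used here. With 1 library per line, no replicate check and no test between lines was possible, and a difference between libraries is not shown to belong to the metastatic behaviour.

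Drug-metabolising enzymes act in sequence: oxidoreductases expose or alter reactive groups, and transferases attach a soluble group that lets the product be exported. UDP-glucuronosyltransferases (UGT) add glucuronic acid, glutathione S-transferases (GST) add glutathione, sulfotransferases (SULT) add sulfate and N-acetyltransferases add an acetyl group. Alcohol dehydrogenases (ADH) make aldehydes, which aldehyde dehydrogenases (ALDH) oxidise to acids and aldo-keto reductases (AKR1) reduce back to alcohols. Hepatocytes are the classic site of most of these reactions, and some AKR1 genes are known to be raised in liver cancer.

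The libraries held 4488825 (parent), 4609696 (subclone 1) and 4725150 (subclone 2) reads, as recovered from the smallest steps of the RPKM values, and listed between 14703 and 14931 genes. The HCC identity was only partly matched by hepatocyte markers. Of 17 such markers 16 were listed, with summed levels of 69.3 RPKM in the parent and 175 and 165 in subclones 1 and 2. ALB, the serum albumin gene, stood at 2.46, 49.5 and 68.8 RPKM in the same order, and the transcription factor HNF4A at 11.7, 11.9 and 16 RPKM. The defining hepatocyte genes TTR (no read in the parent or subclone 1) and CPS1 (2 reads in the parent, none in the subclones) were at or near 0, while the biliary keratin KRT19 stood at 178, 229 and 229 RPKM. A second biliary keratin, KRT7, went the other way at 14.4, 3.47 and 6.04 RPKM (ratios 0.241, 0.154 to 0.368, and 0.420, 0.295 to 0.591), and EPCAM had 2, 1 and 3 reads. Among markers of other cells, the sums over the listed genes in parent, subclone 1 and subclone 2 were 199, 241 and 243 RPKM for biliary and progenitor cells (4 of 5 listed, mostly KRT19), 15.7, 31.1 and 24.3 RPKM for fibroblasts (5 of 6 listed, mostly LUM at 10.1, 24.0 and 21.0 RPKM, while COL3A1 fell from 4.42 to 2.21 and 0.463 RPKM), 4.74, 11.8 and 7.56 RPKM for endothelium (4 of 4 listed), 83.3, 125 and 110 RPKM for leukocytes (4 of 5 listed, mostly CD68, with 2 reads of PTPRC in the parent and none in the subclones) and 0.121, 0.413 and 0.583 RPKM for lung epithelium (2 of 4 listed).

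The level of conjugating and aldehyde-handling enzymes was dominated by carbonyl reduction and aldehyde oxidation. The 72 genes together held 1.04% of the reads in the parent and 1.08% and 1.02% in subclones 1 and 2. Per length, the 11 AKR1 genes summed to 4120 RPKM in the parent and 4080 and 3819 in subclones 1 and 2, and the 16 ALDH genes to 1398, 1511 and 1453 RPKM. The transferases were far lower: the summed RPKM of the 14 GST genes was 274, 287 and 289, that of the 16 UGT genes 83.4, 116 and 119, that of the 9 SULT genes 39.3, 47.3 and 52.8, and NAT1 alone stood at 2.09, 2.31 and 3.24 RPKM. The 5 ADH genes summed to 43.1, 49.7 and 53.0 RPKM. The AKR1 family therefore held 69.1% of the summed RPKM of all 72 genes in the parent and 67.0% and 66.0% in subclones 1 and 2.

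**Figure D1:**
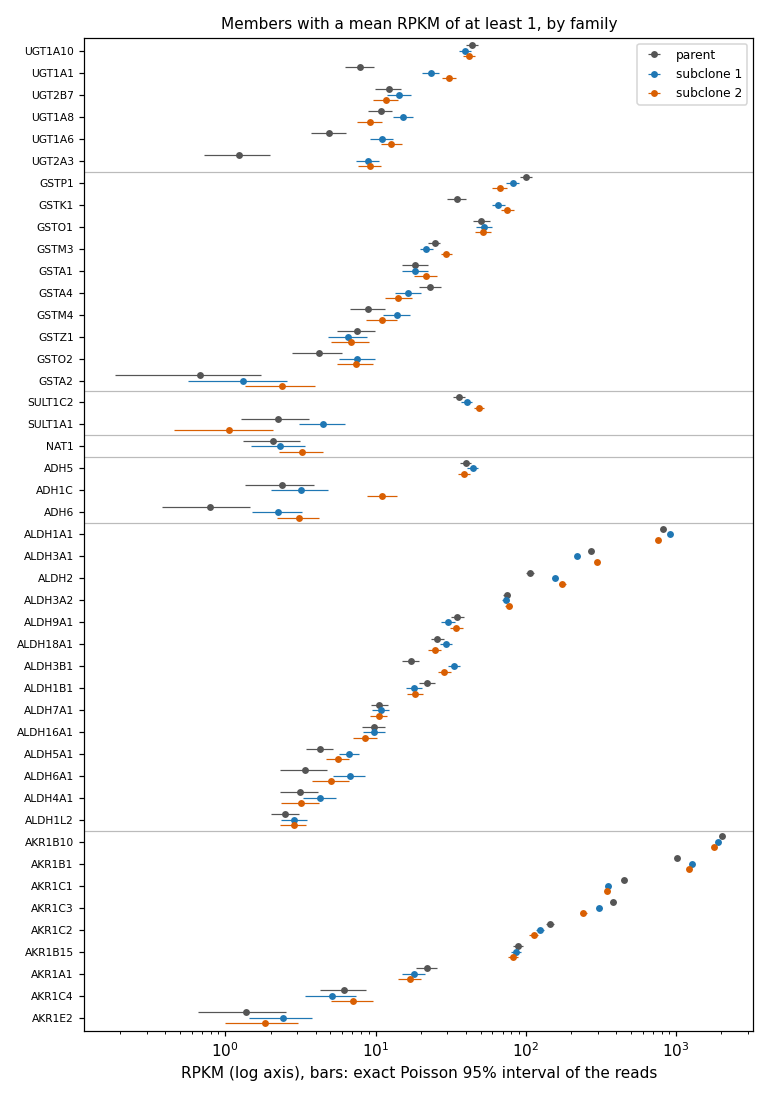
RPKM (log axis) of the 45 enzymes with a mean of at least 1 RPKM in the parent (grey), subclone 1 (blue) and subclone 2 (orange), 1 library each, grouped by family and ordered by mean level. Points are the deposited values and bars the exact Poisson 95% interval of the recovered reads, and AKR1B10 at 1780 to 2022 RPKM is the highest, while UGT2A3, UGT1A1 and ADH6 show the parent to the left of both subclones.

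Ratios were taken as log2 of (RPKM + 0.1) between libraries, and a gene counted as higher or lower at 2-fold on that scale. The fold values and intervals below are plain ratios of RPKM with exact Clopper-Pearson 95% intervals of the reads. Intervals cover counting error only, and may be too narrow even for that, since PCR reads without molecular identifiers are not independent molecules. In subclone 1, 4 of the 45 enzymes (8.89%) were at least 2-fold higher than in the parent, beside 4.90% of all 11370 genes at such a mean level, and none was at least 2-fold lower, beside 1.82% of all genes. All 4 also had an interval that excluded 1 (all genes 4.21% higher and 1.51% lower by this stricter rule). In subclone 2, 7 of 45 (15.6%) were at least 2-fold higher than in the parent, beside 5.33% of all genes, and 1 was lower, beside 2.16%. By the stricter rule the 7 stayed (all genes 4.84%) and the lower one did not (all genes 1.79%). Between the subclones 1 enzyme was past 2-fold upwards in subclone 2 (all genes 1.42%, or 1.05% with an interval that excluded 1) and 1 was lower (all genes 1.39%, or 1.08%), both with intervals that excluded 1. Where 3 values follow one another they are given in the order parent, subclone 1 and subclone 2, and where 2 ratios follow they are those of subclone 1 and subclone 2 to the parent. The 2 comparisons with the parent share its library, so a low parental value shifts both.

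Most of the 45 enzymes moved little. Their median log2 ratio was 0.16 in subclone 1 and 0.05 in subclone 2, each over the parent, and -0.04 between the subclones (subclone 2 over subclone 1), against 0.00, 0.04 and 0.03 for all genes. The interval lay above 1 for 16 and below 1 for 8 of the 45 enzymes in subclone 1, beside 20.2% and 19.4% of all genes. In subclone 2 it lay above 1 for 15 and below 1 for 9, beside 23.0% and 18.3% of all genes. For 15 enzymes the interval included 1 in all 3 comparisons, which limits what this depth can show and does not show equal levels. Fewer cells of one kind and less RNA per cell cannot be told apart in these bulk libraries.

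**Figure D2:**
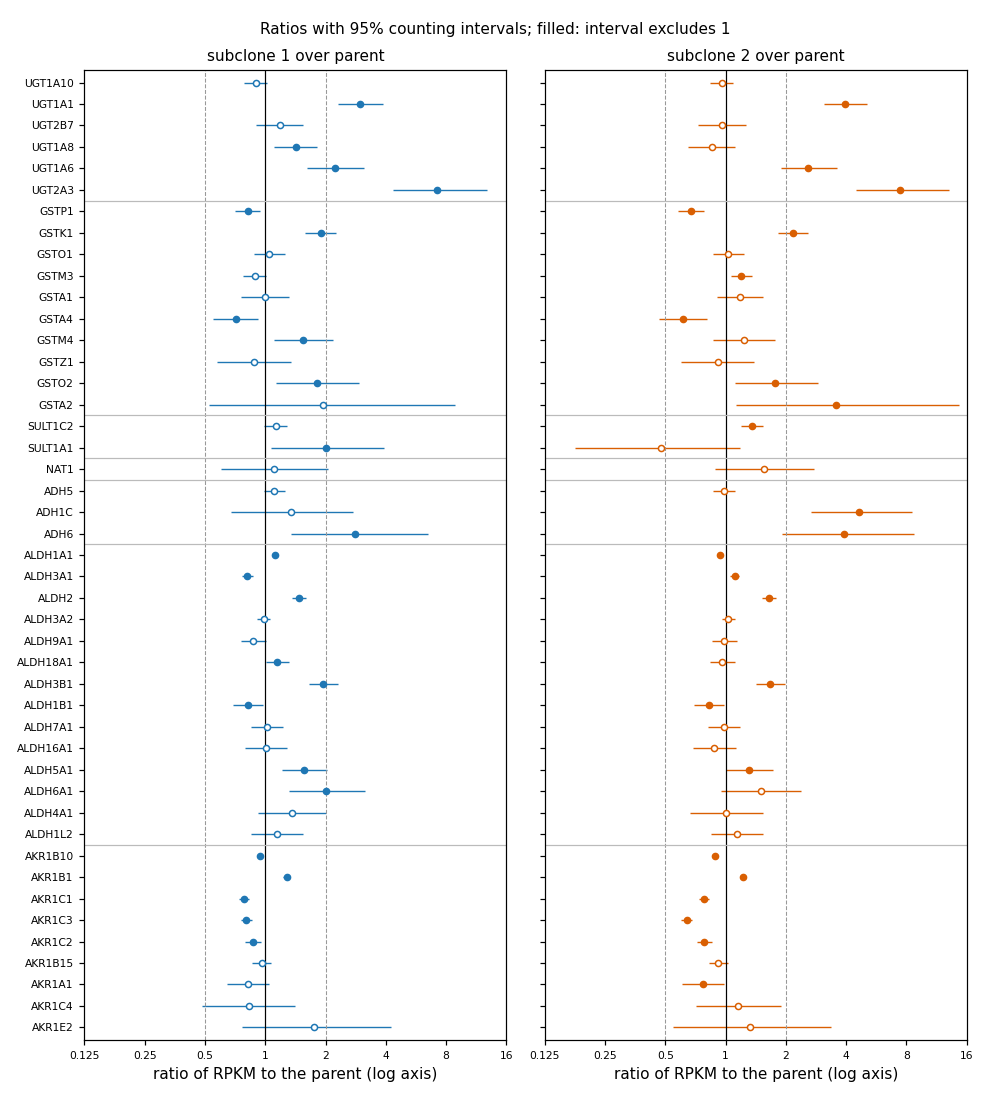
Ratio of RPKM to the parent (log axis) for the same 45 enzymes in subclone 1 (left) and subclone 2 (right), with 95% counting intervals, filled where the interval excludes 1 and with dashed lines at 0.5 and 2. UGT2A3 lies farthest to the right in both panels at 7.22 and 7.43, GSTA2 has the widest interval on the right (1.13 to 14.7), and the abundant AKR1C1, AKR1C2 and AKR1C3 lie left of 1 in both.

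Glucuronidation genes showed the clearest difference from the parent, and in the deposited values it was carried by 3 genes. UGT2A3 (Entrez gene 79799, chromosome 4), a transferase known to act on bile acids, stood at 1.23 RPKM in the parent (17 reads), 8.91 in subclone 1 (126 reads) and 9.17 in subclone 2 (133 reads). Both subclones lay close together and above the parent, 7.22-fold (interval 4.33 to 12.8) and 7.43-fold (4.47 to 13.1), and the ratio between them was 1.03 (0.801 to 1.32). UGT1A1 (Entrez gene 54658, chromosome 2), the enzyme that conjugates bilirubin, stood at 7.84, 23.3 and 31.0 RPKM in parent, subclone 1 and subclone 2, from 83, 253 and 345 reads. It was 2.97-fold higher in subclone 1 (2.31 to 3.85), 3.95-fold higher in subclone 2 (3.10 to 5.08) and 1.33-fold higher in subclone 2 than in subclone 1 (1.13 to 1.57), so the 3 libraries were separate from one another. UGT1A6 (Entrez gene 54578, chromosome 2), which conjugates small planar phenols, stood at 4.91, 11 and 12.7 RPKM from 55, 126 and 150 reads. Its level was 2.23-fold (1.61 to 3.12) and 2.59-fold (1.89 to 3.60) that of the parent, and the subclones were not separated (1.16, 0.910 to 1.48).

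UGT1A genes lie at 1 locus where each has a first exon of its own, spliced to the same last exons. The 5′ ends of the coding sequences below therefore tell the genes apart. They are shown for UGT1A1 and UGT1A6, which were higher in the subclones, and UGT1A10, which was not, as the first 60 coding bases from GENCODE release 29, with capitals at the 50 positions where the 3 are not alike.
UGT1A1: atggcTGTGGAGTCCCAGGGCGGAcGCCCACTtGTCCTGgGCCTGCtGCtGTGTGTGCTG
UGT1A6: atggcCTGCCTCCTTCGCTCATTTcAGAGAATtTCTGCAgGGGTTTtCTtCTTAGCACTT
UGT1A10: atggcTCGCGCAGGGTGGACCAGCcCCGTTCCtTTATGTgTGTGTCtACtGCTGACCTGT

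UGT1A6 differed from UGT1A1 at 41 and UGT1A10 at 39 of these 60 positions, whereas the last 741 coding bases of UGT1A1 (46.3% of its coding sequence) were the same in UGT1A6. Of all 50-base windows of a transcript, 61.4% in UGT1A1, 59.1% in UGT1A6 and 69.6% in UGT1A10 also occurred in another gene, and how the authors assigned such reads was not given in the sources used here. Single UGT1A values are therefore uncertain, and the sum over the locus is less so. The 8 UGT1A genes together held 738 reads in the parent and 1009 and 1088 in subclones 1 and 2, a ratio of 1.33 (1.21 to 1.47) and 1.40 (1.27 to 1.54). Without UGT1A1 and UGT1A6 the sums were 600, 630 and 593 reads, with ratios of 1.02 (0.913 to 1.15) and 0.939 (0.837 to 1.05). Unlike the sum over the locus, this remainder depends on how shared reads were split, so it is as uncertain as the single values. UGT1A10, an enzyme best known from the intestine, was the most abundant UGT at 43.9, 39.4 and 41.9 RPKM, and both intervals against the parent included 1 (0.786 to 1.02 and 0.838 to 1.09). It held 52.7% of the summed UGT level in the parent and 33.9% and 35.4% in subclones 1 and 2. UGT1A8 stood at 10.8, 15.3 and 9.19 RPKM, above the parent in subclone 1 (1.42, 1.11 to 1.81) and lower in subclone 2 than in subclone 1 (0.600, 0.466 to 0.771). The remaining UGT1A genes had at most 12 reads in any library.

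**Figure D3:**
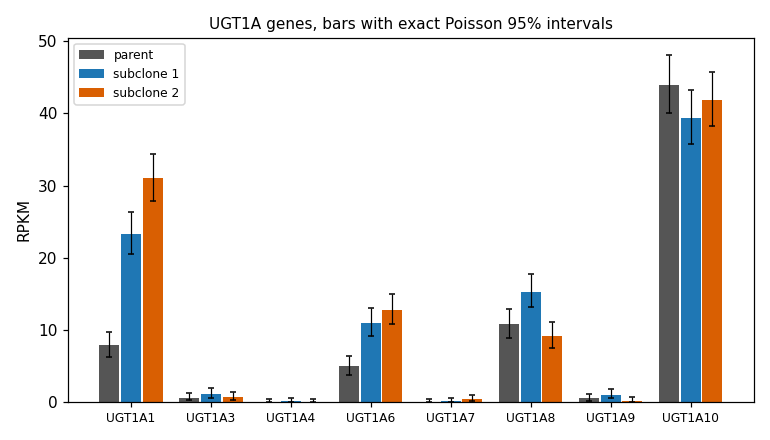
RPKM of the 8 listed UGT1A genes in the parent (grey), subclone 1 (blue) and subclone 2 (orange), 1 library each, with exact Poisson 95% intervals. UGT1A1 and UGT1A6 have parental bars below both subclones, the intervals of the 3 UGT1A10 bars (39.4 to 43.9 RPKM) overlap, and UGT1A8 is highest in subclone 1.

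UGT2B7, a main glucuronidating enzyme for steroids and morphine in liver, stood at 12.2, 14.4 and 11.7 RPKM, and none of its intervals excluded 1 (1.18, 0.903 to 1.54, in subclone 1 and 0.959, 0.724 to 1.27, in subclone 2). The 8 UGT2 genes together held 136, 269 and 254 reads. Only UGT2A3 and UGT2B7 among them had a mean of at least 1 RPKM.

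The summed RPKM of the glutathione transferases was 1.05 times that of the parent in both subclones, and the ratio of their summed reads was 1.03 (0.967 to 1.10) in subclone 1 and 1.11 (1.04 to 1.18) in subclone 2. In subclone 1 the direction of the summed RPKM turned to -0.06 on the log2 scale when libraries were scaled to ACTB. GSTP1, the cytosolic pi-class enzyme, was the most abundant in the parent and lower in both subclones, at 100 (interval 91.2 to 110), 81.8 and 67.2 RPKM. Its ratio to the parent was 0.816 (0.709 to 0.938) in subclone 1 and 0.670 (0.578 to 0.776) in subclone 2. GSTK1 (Entrez gene 373156, chromosome 7), the kappa-class enzyme of mitochondria and peroxisomes, went the other way at 34.9, 65.8 and 75.4 RPKM from 192, 372 and 437 reads. It was 1.89-fold (1.58 to 2.26) and 2.16-fold (1.82 to 2.58) higher, and in subclone 2 it was the most abundant GST in place of GSTP1. GSTO1, an omega-class enzyme, was flat at 50.6, 52.9 and 52.2 RPKM, with ratios of 1.05 (0.875 to 1.25) and 1.03 (0.864 to 1.23).

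The alpha-class GST genes differed among themselves. GSTA2 (Entrez gene 2939, chromosome 6), a classic hepatocyte transferase, rested on 4, 8 and 15 reads (0.675, 1.31 and 2.40 RPKM), and the 3.56-fold ratio of subclone 2 to the parent had an interval from 1.13 to 14.7. Of its 50-base windows 18.4% also occurred in GSTA1, whose coding sequence is 96.7% identical and which stood at 18.3, 18.4 and 21.6 RPKM with intervals that included 1. GSTA4, which removes lipid peroxidation products such as hydroxynonenal, was lower in both subclones at 23.2, 16.5 and 14.2 RPKM, with ratios of 0.711 (0.546 to 0.924) and 0.613 (0.466 to 0.804). GSTO2 stood at 4.18, 7.58 and 7.39 RPKM, with both intervals above 1 (1.13 to 2.95 and 1.11 to 2.88). GSTM4 stood at 8.97, 13.9 and 11 RPKM, above the parent in subclone 1 (1.10 to 2.18), and GSTM3 at 24.7, 21.8 and 29.6 RPKM, above it in subclone 2 (1.06 to 1.36). GSTM1 had 4 reads in subclone 2 and none elsewhere, where 0 reads allow up to 0.528 RPKM in the parent and 0.514 in subclone 1, and 58.5% of its windows occur in other genes.

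Sulfation genes were represented by SULT1C2 and, at a low level, SULT1A1. SULT1C2 held 91.5% of the summed SULT level in the parent and stood at 35.9, 40.4 and 48.6 RPKM, with a ratio of 1.13 (0.991 to 1.28) in subclone 1 and 1.35 (1.20 to 1.53) in subclone 2. SULT1A1 (Entrez gene 6817, chromosome 16), the main phenol sulfotransferase of adult liver, stood at 2.23 RPKM (16 reads) in the parent, 4.48 (33 reads) in subclone 1 and 1.06 (8 reads) in subclone 2. It was the 1 enzyme past 2-fold downwards between the subclones (0.237, 0.0944 to 0.522), and lay on either side of the parent, at 2.01 (1.07 to 3.91) and 0.475 (0.176 to 1.18). On the scale with the added 0.1 RPKM the first of these was 0.97 in log2, just under 2-fold. Its coding sequence is 96.8% identical to that of SULT1A2, which had 1, 2 and 1 reads, and 18.3% of its windows also occur in SULT1A3. SULT1C4, an enzyme of fetal tissue, had 5, 9 and 7 reads. SULT2B1, a cholesterol sulfotransferase, had 6 reads in subclone 2 and none in the parent and subclone 1.

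NAT1, the widely expressed arylamine acetyltransferase, stood at 2.09, 2.31 and 3.24 RPKM from 22, 25 and 36 reads, and its intervals against the parent included 1 (0.599 to 2.06 and 0.890 to 2.77).

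Among alcohol dehydrogenases, the low genes were higher, ADH6 in both subclones and ADH1C in subclone 2, while the abundant ADH5 was not. ADH5, which oxidises the glutathione adduct of formaldehyde, held 92.0% of the summed ADH level in the parent, at 39.7 RPKM, and stood at 44.2 and 38.8 RPKM in the subclones (1.11, 0.983 to 1.26, and 0.978, 0.860 to 1.11). ADH1C (Entrez gene 126, chromosome 4), a class I enzyme of ethanol oxidation in liver, stood at 2.38 RPKM (16 reads) in the parent, 3.19 (22 reads) in subclone 1 and 11 (78 reads) in subclone 2. It was high in subclone 2 alone, 4.63-fold over the parent (2.68 to 8.50) and 3.46-fold over subclone 1 (2.13 to 5.83), and was the 1 enzyme past 2-fold upwards between the subclones. In subclone 1 its ratio to the parent was 1.34 (0.672 to 2.73). ADH1B, with a coding sequence 95.7% identical to that of ADH1C, had 1 read in the parent and none and 1 in subclones 1 and 2. ADH6 (Entrez gene 130, chromosome 4) stood at 0.795, 2.24 and 3.10 RPKM from 10, 29 and 41 reads, 2.82-fold (1.34 to 6.50) and 3.89-fold (1.92 to 8.72) over the parent. The subclones were not separated in ADH6 (1.38, 0.837 to 2.30).

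Aldehyde dehydrogenases were led by ALDH1A1, which makes retinoic acid and is used as a marker of stem-like tumour cells. It stood at 813 RPKM in the parent and 907 and 760 in subclones 1 and 2, so the ratios were small although the depth separated them, at 1.12 (1.08 to 1.15) and 0.935 (0.907 to 0.963). ALDH3A1, which oxidises aromatic aldehydes, stood at 270, 220 and 299 RPKM. It lay below the parent in subclone 1 (0.815, 0.767 to 0.866), above it in subclone 2 (1.11, 1.05 to 1.17), and was 1.36-fold higher in subclone 2 than in subclone 1 (1.28 to 1.44).

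ALDH2, the mitochondrial enzyme that removes acetaldehyde after ethanol, was higher in both subclones at 107, 157 and 175 RPKM from 994, 1503 and 1719 reads. The ratios were 1.47 (1.36 to 1.60) and 1.64 (1.52 to 1.78), and 36.9% of its windows also occur in an overlapping annotated transcript. ALDH3B1 stood at 17.1, 33.4 and 28.7 RPKM, 1.95-fold (1.66 to 2.30) and 1.67-fold (1.42 to 1.98) over the parent. ALDH6A1, of valine breakdown, stood at 3.37, 6.76 and 5.04 RPKM, 2.01-fold over the parent in subclone 1 (1.31 to 3.14) and 1.5-fold in subclone 2 (0.95 to 2.39), and at 0.98 in log2 with the added 0.1 RPKM it did not count as 2-fold. ALDH5A1, of the breakdown pathway of the neurotransmitter GABA, stood at 4.27, 6.67 and 5.61 RPKM with both intervals above 1 (1.21 to 2.03 and 1.01 to 1.72). ALDH1B1 was lower in both at 22.0, 18.0 and 18.2 RPKM (0.690 to 0.971 and 0.698 to 0.979).

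The other leading members of the ALDH subfamilies were close to the parent. ALDH18A1, of proline synthesis, stood at 25.7, 29.6 and 24.8 RPKM, and only the first interval excluded 1 (1.01 to 1.32). ALDH4A1, ALDH7A1, ALDH9A1 and ALDH16A1 had ratios to the parent between 0.872 and 1.36 with intervals that included 1. ALDH8A1 had 1 read in the parent and 1 and none in subclones 1 and 2.

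AKR1B10, a reductase of retinal and other carbonyls that is known to be raised in liver cancer, was the most abundant of all 72 genes. It stood at 2022 RPKM in the parent and 1901 and 1780 in subclones 1 and 2 with ranks of 11, 16 and 16 among the genes listed in these libraries. With between 13544 and 14612 reads per library its ratios of 0.940 (0.919 to 0.962) and 0.881 (0.860 to 0.901) excluded 1 but were small. AKR1B1, aldose reductase, was higher in both subclones at 1008, 1285 and 1226 RPKM, 1.28-fold (1.23 to 1.32) and 1.22-fold (1.18 to 1.26). Between the subclones the log2 ratios of AKR1B1 (-0.07) and AKR1B10 (-0.09) changed sign when libraries were scaled to ACTB or GAPDH, and those of no other enzyme with an interval that excluded 1 did. AKR1B15, whose coding sequence is 85.9% identical to that of AKR1B10, stood at 89.0, 85.6 and 81.9 RPKM with intervals against the parent that included 1.

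Of the AKR1C genes, which reduce steroids and prostaglandins, the 3 abundant ones were lower in both subclones. AKR1C1 stood at 448, 352 and 349 RPKM, with ratios of 0.786 (0.743 to 0.831) and 0.779 (0.736 to 0.823). AKR1C3 stood at 380, 305 and 242 RPKM, with ratios of 0.804 (0.754 to 0.857) and 0.638 (0.596 to 0.683), and AKR1C2 at 144, 125 and 113 RPKM, with 0.867 (0.794 to 0.947) and 0.783 (0.716 to 0.857). AKR1C4, the liver-restricted member, stood at 6.17, 5.10 and 7.10 RPKM with intervals that included 1. These genes resemble one another closely, as the first 90 coding bases (GENCODE release 29) show, with capitals at the 15 positions where the 4 genes are not alike.
AKR1C1: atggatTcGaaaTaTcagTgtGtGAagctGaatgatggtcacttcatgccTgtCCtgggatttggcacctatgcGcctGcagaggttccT
AKR1C2: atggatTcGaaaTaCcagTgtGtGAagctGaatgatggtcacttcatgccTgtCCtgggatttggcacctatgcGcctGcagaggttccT
AKR1C3: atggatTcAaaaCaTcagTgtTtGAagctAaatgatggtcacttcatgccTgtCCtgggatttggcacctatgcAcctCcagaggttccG
AKR1C4: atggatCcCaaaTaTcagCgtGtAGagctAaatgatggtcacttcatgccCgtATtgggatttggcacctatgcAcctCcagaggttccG

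In this stretch AKR1C2 differed from AKR1C1 at 1, AKR1C3 at 7 and AKR1C4 at 12 positions, and over the whole coding sequence the identity to AKR1C1 was 98.0%, 91.9% and 88.5%. Of the 50-base windows of AKR1C2, 55.9% also occur in AKR1C1, so the split between these genes is uncertain and their sum is firmer. The sum of all AKR1C genes was 978 RPKM in the parent and 788 and 712 in subclones 1 and 2, a ratio of reads of 0.808 (0.778 to 0.839) and 0.733 (0.706 to 0.762). AKR1C1 and AKR1C2 together gave 592, 477 and 462 RPKM. Under all scalings tried the log2 ratios of AKR1C1, AKR1C2 and AKR1C3 to the parent kept their negative sign.

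**Figure D4:**
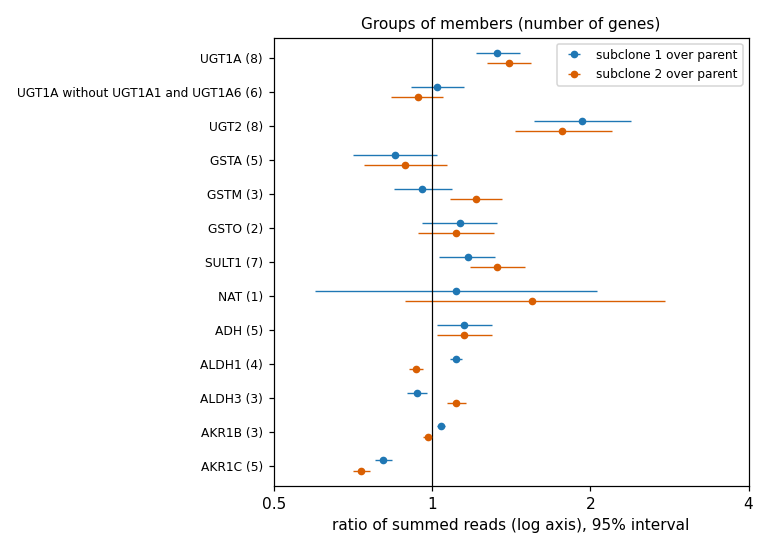
Ratio of summed reads to the parent (log axis), corrected for library totals, for groups of enzymes, with the number of genes in parentheses, in subclone 1 (blue) and subclone 2 (orange) and with 95% counting intervals. UGT1A and UGT2 lie right of 1, UGT1A without UGT1A1 and UGT1A6 crosses 1, and AKR1C lies left of 1 at 0.808 and 0.733. The group of UGT1A without UGT1A1 and UGT1A6 depends on how shared reads were split.

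The 27 enzymes with a mean under 1 RPKM were 10 UGT, 7 SULT, 4 GST, 2 ADH, 2 ALDH and 2 AKR1 genes. They held 47 reads together in the parent and 75 and 66 in subclones 1 and 2, with at most 12 reads for any gene in any library. The 16 enzymes missing from at least 1 library were all among them and had at most 6 reads where listed, while 0 reads still allow up to 3, so a difference was not detectable at this depth except for SULT2B1, whose intervals for subclone 2 excluded 1.

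Enzymes and transporters that serve these reactions were described from lists by count. Medians and counts of a list cover its genes with a mean of at least 1 RPKM. The lists are not independent. GCLC, GCLM and SLC7A11 stand on both the NRF2 and the cofactor list, and NQO1 on both the NRF2 and the oxidoreductase list. Genes of the NRF2 axis, whose transcription factor NFE2L2 is known to drive AKR1B10, AKR1C and GST genes, were described as a list of 20. The median log2 ratio of this list was -0.32 in subclone 1 and -0.31 in subclone 2. The list holds the inhibitor KEAP1 beside NFE2L2 and its targets, so the median and counts do not measure NRF2 activity. A part of NRF2 in the enzyme levels was not tested. The interval lay below 1 for 14 of 20 genes and above 1 for 3 in subclone 1 (all genes 19.4% below and 20.2% above), and below 1 for 13 and above 1 for 5 in subclone 2 (all genes 18.3% and 23.0%). Across the scalings the medians ranged from -0.46 to -0.31 and from -0.35 to -0.25. NFE2L2 stood at 70.6, 50.7 and 42.5 RPKM (0.718, 0.649 to 0.794, and 0.602, 0.541 to 0.669). Its inhibitor KEAP1 was at least 2-fold lower in subclone 2, at 3.33, 1.75 and 1.46 RPKM (0.438, 0.236 to 0.785), and MAFF, a small partner protein, at least 2-fold higher there, at 3.78, 6.92 and 9.49 RPKM (2.51, 1.75 to 3.67). NQO1, a standard NRF2 target, was slightly higher in both at 554, 590 and 643 RPKM.

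The binding motif of NRF2, TGACNNNGC on either strand, was looked for in RefSeq promoters (GRCh38.p14, 250 bases before to 50 after each start), which were found for 56 of the 72 enzymes. It was present in 8 of the 56 (14.3%), beside 16.1% of all genes with a promoter and 13.3% of all promoters: GSTA4, GSTM1, GSTO1, GSTP1, SULT1C2, UGT1A6, UGT2B10 and UGT2B11. AKR1B10 was not among the 56 and so was not searched, and the promoters of AKR1C1, AKR1C2, AKR1C3 and AKR1C4 held no match. GCGTG, the core to which the dioxin receptor AHR binds, was present in 18 of 56 (32.1%), beside 40.6% of all genes and 36.5% of all promoters. No match says only that these letters are not in this window. UGT1A6 also has another annotated promoter, without the motif, and which start these cells use was not determined. Promoters of GSTP1, lower in both subclones, and UGT1A6, higher in both, are shown because both hold the NRF2 motif (capitals), which starts 66 and 98 bases before the start.
GSTP1, chr11:67583562-67583861, plus strand: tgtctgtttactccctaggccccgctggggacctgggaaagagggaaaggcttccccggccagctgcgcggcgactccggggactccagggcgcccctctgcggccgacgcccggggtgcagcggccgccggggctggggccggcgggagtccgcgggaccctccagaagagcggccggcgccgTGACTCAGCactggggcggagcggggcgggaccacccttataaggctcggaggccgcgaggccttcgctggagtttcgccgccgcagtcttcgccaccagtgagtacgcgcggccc
UGT1A6, chr2:233692640-233692939, plus strand: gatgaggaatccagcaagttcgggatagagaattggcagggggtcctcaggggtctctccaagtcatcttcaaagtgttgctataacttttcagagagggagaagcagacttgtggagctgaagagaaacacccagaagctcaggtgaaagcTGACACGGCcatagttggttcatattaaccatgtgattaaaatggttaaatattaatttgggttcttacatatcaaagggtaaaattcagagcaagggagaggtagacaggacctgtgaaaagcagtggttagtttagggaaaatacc

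Among the enzymes with this motif, GSTP1 and GSTA4 were lower in both subclones, and UGT1A6 was higher in both. SULT1C2 was 1.35-fold higher in subclone 2, and the ratios of GSTO1 did not separate from 1. GSTM1, UGT2B10 and UGT2B11 had a mean under 1 RPKM. Whether the motif bears on these ratios was not tested.

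Of 21 nuclear receptors and hepatocyte factors 19 were listed, and 16 had a mean of at least 1 RPKM. Over these 16 the median log2 ratio was 0.22 in subclone 1 and 0.44 in subclone 2. Intervals lay above 1 for 8 and below 1 for 1 of them in subclone 1 (all genes 20.2% and 19.4%), and above 1 for 10 and below 1 for 0 in subclone 2 (all genes 23.0% and 18.3%). The hepatocyte factor FOXA3, left out by its low mean, was lower in both subclones, from 14, 1 and 5 reads. Its ratios were 0.0696 (0.00164 to 0.457) and 0.339 (0.0956 to 0.997). AHRR and ONECUT1, left out in the same way, had intervals that included 1. NR1H4, the bile acid receptor, stood at 1.61, 10.8 and 9.34 RPKM (6.71-fold, 4.07 to 11.7, and 5.81-fold, 3.51 to 10.2). PPARA, the fatty acid receptor, stood at 2.15, 5.48 and 6.04 RPKM (2.55-fold, 2.01 to 3.26, and 2.81-fold, 2.23 to 3.58). FOXA1, a pioneer factor of liver genes, was high in subclone 2 alone at 7.63, 8.96 and 21.7 RPKM (2.85-fold over the parent, 2.28 to 3.58, and 2.43-fold over subclone 1, 1.97 to 3.00). PROX1, a hepatocyte and lymphatic factor, was low in subclone 1 alone at 3.17, 0.773 and 2.47 RPKM (0.243, 0.113 to 0.479). The summed hepatocyte markers (69.3, 175 and 165 RPKM) were higher in both subclones, as were NR1H4, PPARA, UGT1A1, UGT2A3 and ADH6, whereas ADH1C and FOXA1 were high in subclone 2 alone. Of 11 markers with a mean of at least 1 RPKM, 6 were at least 2-fold higher in subclone 1 (all genes 4.90%) and 5 in subclone 2 (all genes 5.33%), and HNF4A is among the genes that stand on both lists. The part of these markers in the results was not tested.

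The supply of cofactors had a median log2 ratio over 18 genes of -0.13 in subclone 1 (-0.26 to -0.11 across scalings) and -0.01 in subclone 2 (-0.04 to 0.06). Intervals lay above 1 for 4 and below 1 for 6 genes in subclone 1 (all genes 20.2% and 19.4%), and above 1 for 4 and below 1 for 5 in subclone 2 (all genes 23.0% and 18.3%). UGDH, which makes the glucuronic acid donor of the UGT enzymes, stood at 260, 218 and 229 RPKM, and GCLM, a subunit of the first enzyme of glutathione synthesis, at 158, 97.7 and 100 RPKM (0.616, 0.576 to 0.659, and 0.632, 0.591 to 0.676). GGT1, which cleaves extracellular glutathione, was the 1 gene of this list past 2-fold, at 3.21, 8.92 and 9.23 RPKM (2.78-fold, 1.88 to 4.21, and 2.88-fold, 1.95 to 4.35).

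Export and hydrolysis of conjugates had median log2 ratios of -0.23 and -0.08 over 13 genes. Intervals lay above 1 for 5 and below 1 for 5 in subclone 1 (all genes 20.2% and 19.4%), and for 4 and 4 in subclone 2 (all genes 23.0% and 18.3%). The sulfatase SULF2, which trims heparan sulfate, was lower at 3.36, 0.306 and 0.498 RPKM (0.0913, 0.0323 to 0.210, and 0.148, 0.0679 to 0.291). GUSB, the lysosomal enzyme that splits glucuronides, stood at 18.4, 37.4 and 34.3 RPKM (2.03-fold, 1.70 to 2.42, and 1.86-fold, 1.56 to 2.23). The glutamyltransferase family gene GGT7 was 2.52-fold higher in subclone 1 (1.26 to 5.38), and the transporter ABCC6 was 2.44-fold higher in subclone 2 (1.29 to 4.90).

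Other oxidoreductases had median log2 ratios of -0.03 in subclone 1 and 0.20 in subclone 2 over 16 genes. Intervals lay above 1 for 6 and below 1 for 2 of these in each subclone (all genes 20.2% and 19.4% in subclone 1, 23.0% and 18.3% in subclone 2). The aldehyde reductase AKR7A3 rested on 4, 15 and 17 reads and was 3.65-fold (1.16 to 15.1) and 4.04-fold (1.32 to 16.5) higher. The carbonyl reductase CBR3 was lower at 10.3, 5.58 and 2.06 RPKM, past 2-fold in subclone 2 against the parent (0.201, 0.0946 to 0.390) and against subclone 1 (0.370, 0.167 to 0.763). Other transferases had medians of 0.19 and 0.28 over 15 genes. Intervals lay above 1 for 4 and below 1 for 1 in subclone 1 (all genes 20.2% and 19.4%), and for 6 and 3 in subclone 2 (all genes 23.0% and 18.3%). In subclone 1, 3 of the 15 were at least 2-fold higher than in the parent (all genes 4.90%), and in subclone 2 none was (all genes 5.33%). The 3 were BAAT, which conjugates bile acids with amino acids (14.5, 33.9 and 20.2 RPKM, 2.34-fold, 2 to 2.75), HNMT, which methylates histamine (2.13-fold, 1.61 to 2.83), and TPST1, which sulfates tyrosine in proteins (2.01-fold, 1.56 to 2.61). UGT8, the galactosyltransferase of myelin lipids, was lower in subclone 2 than in subclone 1 (0.457, 0.230 to 0.869).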

How the data were processed

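The mRNA libraries, 1 per cell line, were made from Trizol-extracted RNA using an Illumina TruSeq kit. Per gene, listed by Entrez number and symbol, the authors deposited RPKM, and the labels name the build hg19. The aligner, the counting, the gene models and how strand and shared reads were treated were not given in the sources used here. Genes absent from a library were set to 0.

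Reads were recovered as the whole numbers that fit the RPKM of a gene in all 3 libraries, for 99.7% of the 16149 genes and all 72 enzymes, and sum to between 100.1% and 100.2% of the totals. The length was checked against GENCODE release 29 transcripts, and 80.3% came within 10% of one. The method was tested on simulated data. Read numbers may still share an unseen divisor, which would widen an interval.

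Ratios were log2 of (RPKM + 0.1) for the 11370 genes averaging 1 RPKM or more. Poisson and Clopper-Pearson intervals were at 95%, and 3 reads were taken as the limit that 0 allows. With 1 library per group no test was run and no p-value was computed, and no count model was fitted to the recovered reads for the same reason. Shared sequence was counted as the 50-base windows of a transcript that occur in a transcript of another gene. Members and gene lists were chosen with earlier results of these data known.

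Named enzymes were those at least 2-fold different with an interval that excluded 1 in any comparison, the 3 most abundant of each family, and the leading gene of each ALDH subfamily, 30 in all. ADH1B, AKR1B15, AKR1C2, AKR1C3, AKR1C4, ALDH1B1, ALDH3B1, GSTA1, GSTA4, GSTM1, GSTM3, GSTM4, GSTO2, SULT1A2, SULT2B1 and UGT1A8, and of the lists NFE2L2, NQO1, GCLM, UGDH, FOXA3, AHRR, ONECUT1, KRT7, EPCAM, LUM and COL3A1, were named after their values were seen. Chromosomes came from RefSeq GRCh38.p14, which held the numbers of all 72 enzymes, and no gene coordinates were used because the build differs. Alternatives were other pseudocounts, scalings, filters and a 1.5-fold threshold. Python 3.11.15, numpy 2.4.6, pandas 2.3.3, scipy 1.17.1 and matplotlib 3.10.9 were used. Some list members and sequences are not reported here.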

Additional observations from a re-analysis of the deposited data

Results flagged for a closer look

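For 7 of the 45 enzymes with a mean of at least 1 RPKM the 2 subclones lay on opposite sides of the parent and their interval against each other excluded 1. The difference was not tested, since each line has 1 library. The same count was not made over all genes, so it is not shown to be particular to these enzymes. SULT1A1 was above the parent in subclone 1 and below it in subclone 2, with a log2 ratio of subclone 2 over subclone 1 of -1.98, from 33 and 8 reads. The same log2 ratio was -0.73 for UGT1A8, from 169 and 104 reads, and the 72.8% of its windows shared with other genes leave its own level uncertain. ALDH3A1 and GSTM3 were below the parent in subclone 1 and above it in subclone 2, with log2 ratios between the subclones of 0.44 and 0.44. ALDH1A1, ALDH18A1 and ADH5 were above the parent in subclone 1 and below it in subclone 2, by small margins, with log2 ratios between the subclones of -0.26, -0.26 and -0.19. In subclone 2 over the parent, ALDH18A1 ranged from -0.09 to 0.01 in log2 across scalings and ADH5 from -0.07 to 0.03. The side of the parent on which these 2 lay thus depends on the scaling. For ALDH1A1, ALDH3A1 and no other of the 7 both intervals against the parent excluded 1.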

How the results depend on the processing

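No paired analysis was possible because only 1 library per line was sequenced, and no replicate could be left out. The counts of enzymes past 2-fold (4 higher and 0 lower in subclone 1, 7 and 1 in subclone 2, 1 and 1 between the subclones) were unchanged or within 1.5 times in 45 of 60 alternatives. With a pseudocount of 0.01, 6 of the 45 enzymes were higher in subclone 1, beside 601 of all 11370 genes. The lower count of subclone 2 became 0 with a pseudocount of 1, with division by GAPDH and when a mean RPKM of 5 or more was asked. Without a filter the counts were 7 higher and 2 lower in subclone 1, 15 and 5 in subclone 2, and 6 and 5 between the subclones, from the low enzymes that the filter leaves out. These are counts among 72 enzymes. Among all 16149 genes they were 1523 and 884, 1553 and 941, and 842 and 902 in the same order. With that stricter filter 38 enzymes were left, and the lower count between the subclones became 0. At 1.5-fold, 13 of the 45 were higher and 0 lower in subclone 1, 11 higher and 3 lower in subclone 2, and 2 higher and 2 lower between the subclones. Among all 11370 genes these counts were 1317 and 848, 1444 and 830, and 540 and 467. The median log2 ratio of the enzymes lay between 0.03 and 0.17 for subclone 1, between 0.01 and 0.11 for subclone 2 and between -0.08 and 0.09 for subclone 2 over subclone 1, the last above 0 under division by ACTB or GAPDH. No ratio past 2-fold changed sign. Of 630 values of named enzymes 29 moved, and of 147 family sums 23 moved. Division by ACTB changed the share of higher among all 2-fold genes from 72.9% to 57.8% in subclone 1 and from 50.5% to 63.9% between the subclones, and division by GAPDH changed the latter to 62.6%. The median of all genes then shifted to -0.13, 0.16 and 0.15 on the log2 scale. The summed AKR1, ALDH, GST and UGT levels between the subclones (-0.10, -0.06, 0.01 and 0.03 in log2) and the summed ALDH and GST levels of subclone 1 over the parent (0.11 and 0.07) changed sign under at least 1 scaling. Depth limits the enzymes under 1 RPKM, which had at most 12 reads.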
